A study of Homo sapiens with 6 samples.

Results

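The serine/arginine-rich (SR) splicing factors SRSF1, SRSF2, SRSF3, SRSF4, SRSF5, SRSF6, SRSF7 and SRSF11 and the SR-like proteins TRA2A and TRA2B were followed at the level of their transcripts. Members were chosen by gene name, as every isoform filed under one of these symbols, which gave 10 of 26334 genes and 23 of 51398 RefSeq isoforms. Of the 23 isoforms, 19 carry a coding accession (NM_) and 4 a noncoding accession (NR_). The noncoding isoforms belong to SRSF1, SRSF2, SRSF3 and SRSF6, and the other 6 genes have none among the isoforms listed. The split rests on the accession alone, and isoforms that are not listed could not be counted.

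The libraries came from PC-9 cells, a line established from a human lung adenocarcinoma that depends on mutant EGFR, grown in RPMI with serum. The sample titles and the RNA-Seq methods name no drug. The cells carried a scrambled shRNA (shScr, labeled as the control) or an shRNA against the splicing factor RBM10 (shRBM10#1 or shRBM10#2), and each condition had 2 libraries. The control was taken as labeled, although the methods speak of parental cells. All libraries come from 1 cell line, and nothing states that the libraries of a condition came from separate cultures, so p-values measure the spread between these libraries, which may be technical.

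SR proteins bind short motifs in exons through RNA recognition motifs and recruit the splicing machinery through domains rich in serine and arginine, and they most often favor inclusion of the exon they bind. RBM10 is an RNA-binding protein known mainly for promoting exon skipping. SR genes are known for controlling their own output through alternative exons or introns that bring in an early stop codon or a splice junction behind the stop codon. Such transcripts are targets of nonsense-mediated decay (NMD), the pathway that removes mRNAs with a stop codon well upstream of the last exon junction.

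RBM10 checked the labels. It was at 83.2 and 86.2 CPM (counts scaled to library size) with shScr, at 59.8 and 56.4 CPM with shRBM10#1 and at 27.2 and 26.9 CPM with shRBM10#2. Its log2 fold change (FC) was −0.54 with shRBM10#1 (FDR = 2.28e-04) and −1.65 with shRBM10#2 (FDR = 5.10e-08; both FDR from edgeR's quasi-likelihood test, adjusted by Benjamini-Hochberg over 14217 genes). Library totals ranged from 31953729 to 37557507 expected counts, of which the 10 genes held 0.166% to 0.174%. The mean fragment, read from the gap between the length and the effective length of isoforms, had 231 nt in shScr replicate 2 and 265 to 281 nt elsewhere. Replicates were further apart than counting noise over gene totals, as their chi-square divided by its degrees of freedom was 9.78 in shScr, 12.5 in shRBM10#1 and 3.24 in shRBM10#2. The epithelial markers EPCAM, KRT8, KRT18, KRT19, CDH1 and EGFR were at 52.4 TPM (a level scaled for isoform length and depth) or more in every library, and PTPRC, CD3E, PECAM1, COL1A1, COL3A1 and ALB, markers of other cell types, at 2.88 TPM or less. Some of these markers moved with the shRNAs: 2 of the 6 epithelial markers were called with shRBM10#1 (KRT19 higher, EGFR lower) and 3 with shRBM10#2 (EPCAM higher, KRT19 and EGFR lower). Of the 3 markers of other cell types that passed the filter, 1 was called with shRBM10#1 (PECAM1, higher) and 2 with shRBM10#2 (ALB, higher, and COL1A1, lower, edgeR). ALB was listed at 0 TPM in both shScr libraries, at 0.05 and 0.02 TPM with shRBM10#1 and at 1.54 and 1.81 TPM with shRBM10#2. The markers of other cell types summed to 4.14 to 4.21 TPM with shScr, 4.01 to 4.38 TPM with shRBM10#1 and 4.99 to 5.69 TPM with shRBM10#2, and their part in the results was not tested. In a bulk sample, fewer cells with a transcript and less of it per cell cannot be told apart.

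The structures of the noncoding isoforms were taken from GENCODE 29 on GRCh38. The submitters' processing notes name hg19, and no coordinate was converted. All 4 noncoding isoforms of the SR genes are annotated there as NMD targets. The same holds for 919 of 2401 matched NR_ isoforms (38.3%) among all genes that also have a coding isoform.

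In SRSF3, which encodes the smallest SR protein, NR_036610 holds a cassette exon of 456 nt (chr6:36599821-36600276, plus strand) that the main isoform NM_003017 lacks. The reading frame stops after 124 codons instead of 164, and the TGA stop lies 548 nt upstream of the last exon junction. In SRSF6 (SRp55), the cassette exon of NR_034009 has 268 nt (chr20:43459153-43459420, plus strand). It shortens the frame from 344 to 135 codons, with a TAG stop 534 nt upstream of the last junction. In SRSF1 (SF2/ASF), the founding member of the family, NR_034041 retains an intron of 200 nt (chr17:58005601-58005800, minus strand). The frame of SRSF1 then ends at a TAA after 201 codons instead of 248, which lies 824 nt upstream of a further junction in the 3′ UTR. The lines below give the mRNA, 5′ to 3′, across the junction where the extra segment starts, in the noncoding isoform and in the main coding isoform. Lower case is the shared upstream exon and capitals are what follows it, so that each pair shows the point at which the isoforms part.

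SRSF3 NR_036610: tccacctcgtcgcagAGTCACCATCATGTC
SRSF3 NM_003017: tccacctcgtcgcagATCTCCAAGAAGGAG
SRSF6 NR_034009: gctacggaagccgcaTGACCAATGGGGCTG
SRSF6 NM_006275: gctacggaagccgcaGTGGTGGAGGTGGAT
SRSF1 NR_034041: tttagatctcatgagGTAGGTTATACACGT
SRSF1 NM_006924: tttagatctcatgagGGAGAAACTGCCTAC

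In the retained intron of SRSF1 the capitals open with the GT of the 5′ splice site that is not used. The next lines give the last bases of the shortened reading frames, with the stop codon in capitals.

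SRSF3 NR_036610: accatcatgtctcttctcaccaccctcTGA
SRSF6 NR_034009: gccatgacgacagcagccttttgccatTAG
SRSF1 NR_034041: tttgaccagaattggatacagtggtctTAA

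SRSF2 (SC35), a marker of nuclear speckles, is built differently. Its noncoding isoform NR_036608 keeps the full frame of 221 codons and adds an exon of 104 nt behind the stop codon (chr17:76735772-76735875, minus strand). A further intron is removed from its last exon, so the stop codon comes to lie 209 nt upstream of the last junction. In the main coding isoform NM_001195427 that distance is 7 nt, and in NM_003016, which keeps the intron in the 3′ UTR, the stop codon lies in the last exon.

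**Figure D1:**
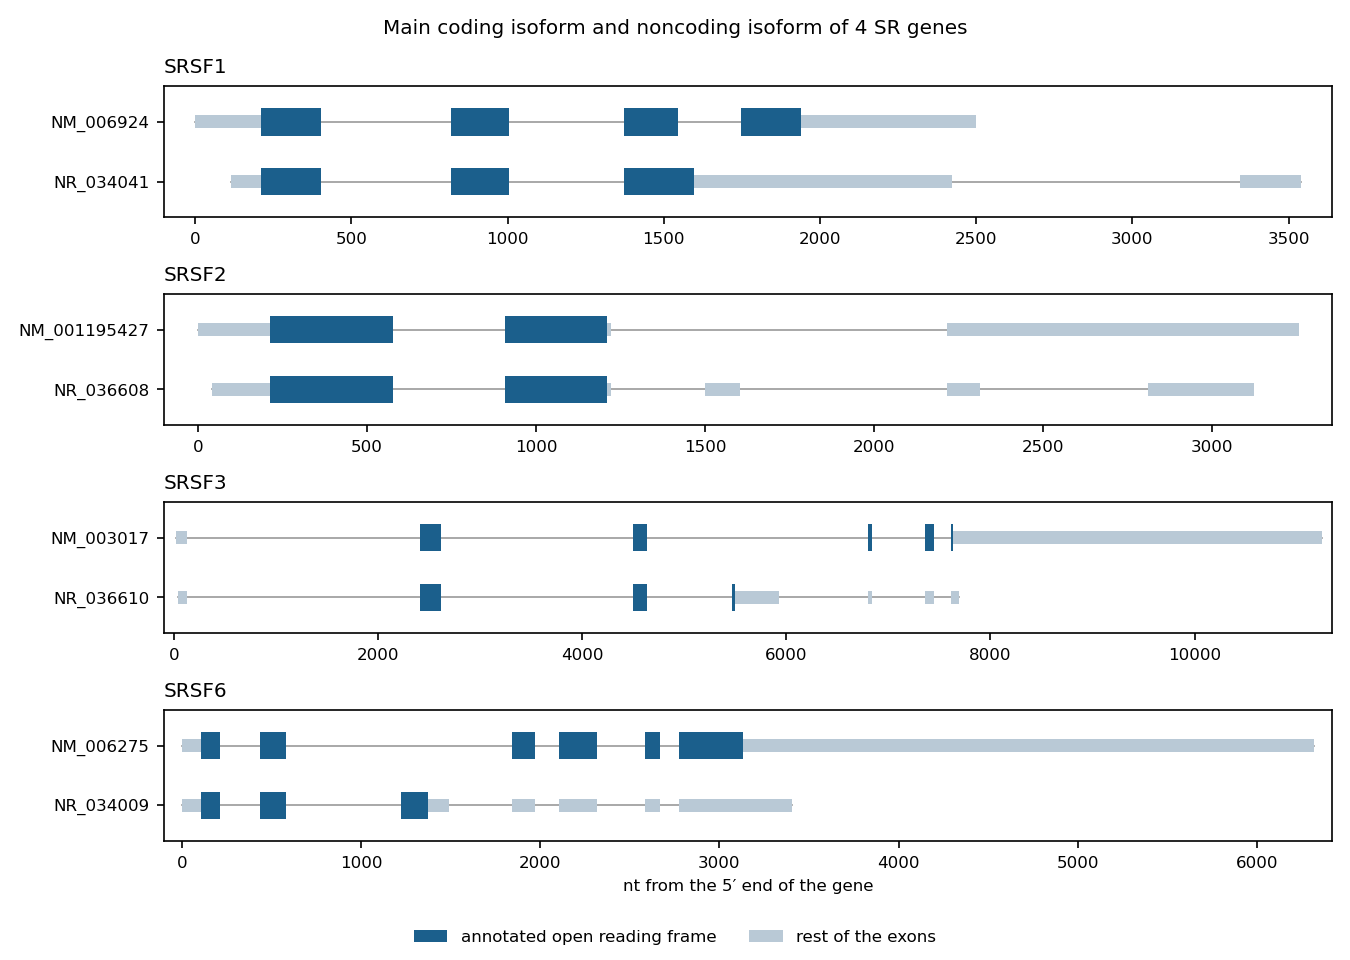
Exons of the main coding isoform and the noncoding isoform of SRSF1, SRSF2, SRSF3 and SRSF6, to scale in nt from the 5′ end of the gene (x axis). Dark boxes are the annotated reading frame, pale boxes the rest of the exons and lines the introns. In SRSF3 and SRSF6 the extra exon ends the frame, in SRSF1 the retained intron does, and in SRSF2 the frame is unchanged and exons are added behind it.

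Each gene total is the sum of the isoform TPM, a scale on which genes of different length can be compared. The log2 FC from edgeR were fitted to counts scaled to library size (CPM), so they can differ from the change in TPM. SRSF2 and SRSF3 led, followed with a clear gap by the other SR genes, and TRA2A was the lowest. SRSF2 ranged from 201 to 225 TPM over the 6 libraries and SRSF3 from 181 to 195 TPM. Next came SRSF5 (SRp40) at 82.2 to 98.2 TPM, SRSF1 at 80.8 to 99.5 TPM, SRSF6 at 77.6 to 103 TPM and SRSF7, an SR protein with a zinc knuckle, at 72.7 to 86.1 TPM. TRA2B, a homolog of Drosophila transformer-2 that binds purine-rich enhancers, ranged from 59.4 to 66.2 TPM. SRSF11 ranged from 48.7 to 56.6 TPM, SRSF4 (SRp75, with a long serine/arginine domain) from 40.1 to 55.8 TPM, and TRA2A, the close relative of TRA2B, from 33.5 to 44.8 TPM. In the run from SRSF5 to SRSF7 each range overlapped that of its neighbor, as in the run from SRSF11 through SRSF4 to TRA2A. SRSF2 did not overlap SRSF3, nor SRSF3 the genes below it, nor did TRA2B overlap SRSF7 above it or SRSF11 below it. The 10 genes together gave 897.9 to 1006.1 TPM, with the highest sum in shScr replicate 2, the library with the shortest fragments, whose part in these levels was not tested.

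**Figure D2:**
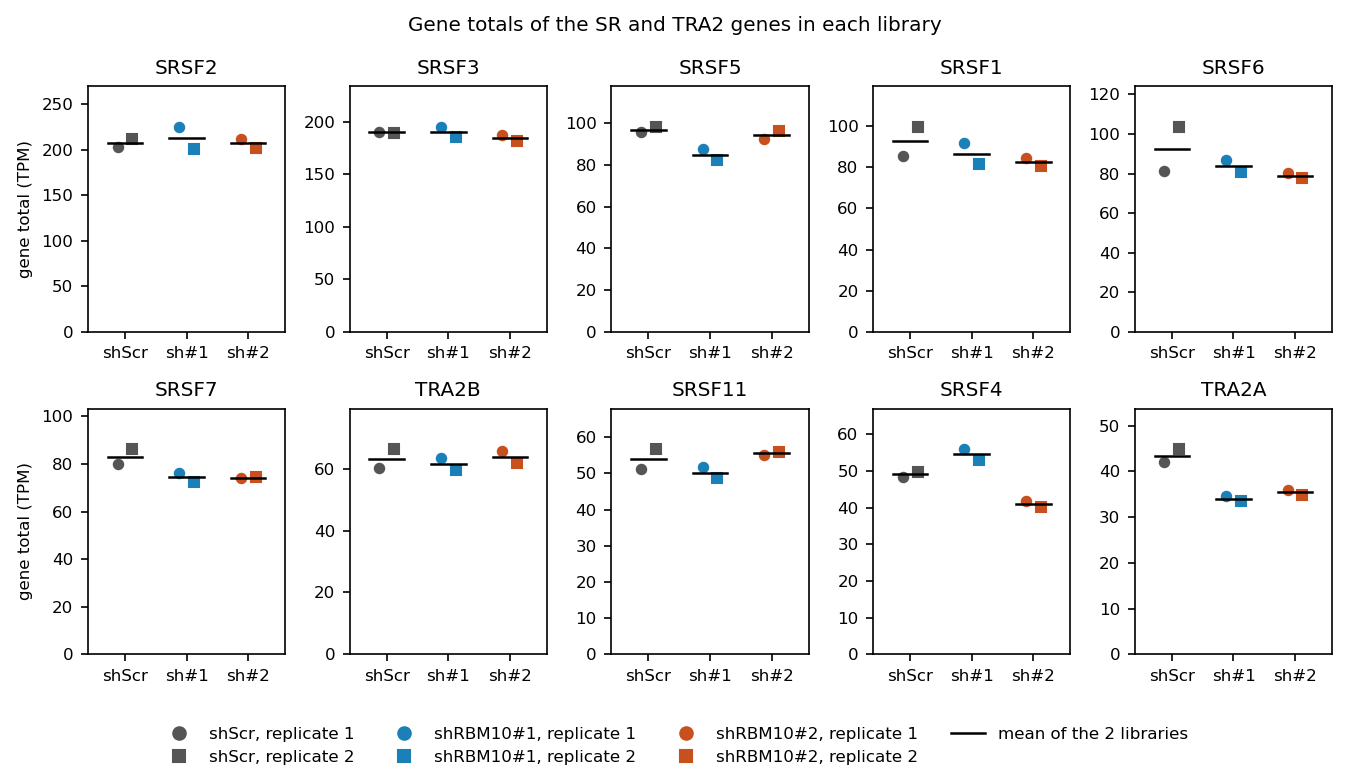
Gene totals in TPM (y axis, from 0) of the 10 genes, in order of their mean level, for shScr, shRBM10#1 (sh#1) and shRBM10#2 (sh#2). Circles and squares are replicates 1 and 2, and lines are condition means. SRSF4 lay at 53.1 and 55.8 TPM with shRBM10#1 and at 40.1 and 41.7 TPM with shRBM10#2, on either side of shScr. The 4 knockdown libraries of TRA2A, at 33.5 to 36.0 TPM, and those of SRSF7, at 72.7 to 76.1 TPM, lay below both shScr libraries.

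The gene totals of SRSF4 and TRA2A differed from shScr with each shRNA, and the share of the 10 genes called was near that of all genes. Upon knockdown with shRBM10#1, 2 of the 10 genes were called at an FDR below 0.05, SRSF4 (higher) and TRA2A (lower), which stands beside 14.0% of all 14217 genes tested (7.13% higher and 6.91% lower). Upon knockdown with shRBM10#2, 2 of the 10 were called as well, SRSF4 and TRA2A (both lower), beside 25.9% of all genes (12.0% higher and 13.9% lower). Between the shRNAs, 1 of the 10 was called, SRSF4 (lower with shRBM10#2), beside 25.5% of all genes (11.0% higher and 14.5% lower). With the 4 knockdown libraries as one group 0 of the 10 were called (edgeR), beside 1.62% of all genes (0.542% higher and 1.08% lower). An unadjusted p below 0.05 was seen in 1 of the 10 (TRA2A), beside 17.2% of all genes (edgeR). DESeq2 gave the same counts of 0 and 1, where it called 718 of all genes. In this pooled comparison RBM10 itself was not called either (log2 FC −0.99, FDR = 0.146, edgeR), and this fit counts the gap between the shRNAs as variance. None of the 10 had an absolute log2 FC above 1 in any of these comparisons, beside 1.88%, 1.3%, 0.394% and 1.19% of all genes that passed both criteria with shRBM10#1, with shRBM10#2, with both shRNAs together and between the shRNAs. The comparisons with each shRNA use the same shScr libraries and are not independent. The median log2 FC of the 10 genes was −0.0023 with shRBM10#1, where that of all genes was 0.0079, and −0.0416 with shRBM10#2, where that of all genes was 0.0054.

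SRSF4 (chr1:29147743-29181987, minus strand, GRCh38), represented by the single isoform NM_005626, moved in opposite directions with the shRNAs. It was at 48.4 and 49.8 TPM with shScr, at 55.8 and 53.1 TPM with shRBM10#1 and at 41.7 and 40.1 TPM with shRBM10#2. The conditions did not overlap, with shRBM10#1 highest and shRBM10#2 lowest. The log2 FC was 0.24 with shRBM10#1 (SE 0.0695, 95% interval 0.09 to 0.39, FDR = 0.0366, edgeR). This is a rise of 18.1% in CPM, from 76.5 and 69.2 CPM with shScr to 86.7 and 85.4 CPM. With shRBM10#2 the log2 FC was −0.21 (SE 0.0699, 95% interval −0.36 to −0.06, FDR = 0.0455, edgeR), a change of −13.4% in CPM. The difference between the shRNAs was −0.45 on the log2 scale (SE 0.0695, 95% interval −0.60 to −0.30, FDR = 0.000959, edgeR), larger than that of either with shScr. In the pooled comparison the log2 FC was 0.03 (SE 0.149, FDR = 0.939, edgeR). KRT19, one of the epithelial markers, had log2 FC of 0.28, −0.28 and −0.56 in the same order (with shRBM10#1, with shRBM10#2 and between the shRNAs), and its relation to SRSF4 was not tested. The call with shRBM10#1 ended without shScr replicate 2 (log2 FC 0.17), without shRBM10#1 replicate 1 or 2 (0.23 and 0.25) and without shRBM10#2 replicate 1 or 2 (0.24 and 0.24, edgeR). It also ended in limma on log2(TPM + 0.1) (log2 FC 0.15, FDR = 0.384). A fit with a lone library in a condition can lose a call while the log2 FC hardly moves, so only the log2 FC is given for it. The call with shRBM10#2 ended without shScr replicate 1 (log2 FC −0.13), without shRBM10#2 replicate 1 or 2 (−0.23 and −0.18), with the replicate number as a block (FDR = 0.0616, edgeR) and in limma (FDR = 0.0767). The difference between the shRNAs ran from −0.47 to −0.41 with a library left out (edgeR). It kept an FDR of 0.01425 or less with the minimum count, the replicate block, DESeq2 and limma, but did not meet the fold criterion. It was not run without a filter or with DESeq2 size factors.

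TRA2A (chr7:23504780-23532041, minus strand, GRCh38), which binds the same kind of purine-rich enhancer as TRA2B, was lower with both shRNAs. It was at 42.1 and 44.8 TPM with shScr, at 34.6 and 33.5 TPM with shRBM10#1 and at 36.0 and 34.8 TPM with shRBM10#2. All 4 knockdown libraries lay below both shScr libraries. The same held for SRSF7, which was not called (72.7 to 76.1 TPM against 80.2 and 86.1 TPM). How many of all genes separate in this way was not counted. The shRBM10#1 libraries of TRA2A lay just below those of shRBM10#2. The log2 FC was −0.26 with shRBM10#1 (SE 0.0698, 95% interval −0.42 to −0.11, FDR = 0.0241, edgeR), a change of −16.8% in CPM. With shRBM10#2 it was −0.23 (SE 0.0693, 95% interval −0.38 to −0.08, FDR = 0.0290, edgeR), a change of −14.7% in CPM. In limma on log2(TPM + 0.1) the log2 FC were −0.35 with shRBM10#1 and −0.29 with shRBM10#2. The shRNAs differed from each other by 0.04 on the log2 scale (95% interval −0.12 to 0.19, FDR = 0.742, edgeR), although they lowered RBM10 to different degrees. In the pooled comparison the log2 FC was −0.25 (SE 0.0754, unadjusted p = 0.00912, FDR = 0.144, edgeR), and with one coefficient per condition, which leaves the gap between the shRNAs out of the variance, its FDR was 0.013. The call with shRBM10#1 ended without shScr replicate 1 (log2 FC −0.22), without shRBM10#1 replicate 2 (−0.26) and without shRBM10#2 replicate 1 or 2 (−0.26 and −0.27, edgeR). The call with shRBM10#2 ended without shScr replicate 1 (log2 FC −0.19), without shRBM10#2 replicate 1 or 2 (−0.25 and −0.21, edgeR) and in limma on log2(TPM + 0.1) (FDR = 0.0595).

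The other 8 genes passed in none of the comparisons. Their 95% intervals are unadjusted and rest on the spread between these libraries, so they do not bound the effect of knockdown. SRSF6 came nearest with shRBM10#2. It was at 81.2 and 103 TPM (199 and 221 CPM) with shScr and at 80.1 and 77.6 TPM (191 and 186 CPM) with shRBM10#2. Its log2 FC was −0.16 (95% interval −0.31 to −0.01, unadjusted p = 0.0369, FDR = 0.106, edgeR). Both shRBM10#2 libraries of SRSF6 lay below both shScr libraries, but the shScr libraries lay further apart from each other than that. SRSF2 had a log2 FC of 0.12 with shRBM10#1 (95% interval −0.03 to 0.27, FDR = 0.267, edgeR) and of 0.07 with shRBM10#2 (95% interval −0.08 to 0.22, FDR = 0.513, edgeR). SRSF5 had a log2 FC of −0.11 with shRBM10#1 (95% interval −0.26 to 0.04, FDR = 0.323, edgeR) and of 0.01 with shRBM10#2 (95% interval −0.14 to 0.16). With shRBM10#1 it went from 85.2 and 77.6 CPM to 76.7 and 74.0 CPM. In TPM the step was from 95.6 and 98.2 to 87.7 and 82.2, a log2 FC of −0.19 in limma on log2(TPM + 0.1). In SRSF1, the most studied SR protein, the 95% interval of the log2 FC ran from −0.14 to 0.14 with shRBM10#1 and from −0.24 to 0.05 with shRBM10#2. In SRSF3, an SR protein that also serves in mRNA export, it ran from −0.07 to 0.25 and from −0.14 to 0.17. For SRSF7, which shares that export role, it was −0.20 to 0.07 and −0.24 to 0.03, although all its knockdown libraries lay below both shScr libraries. In SRSF11, whose product binds the splicing factor U2AF2, it ran from −0.14 to 0.13 and from −0.03 to 0.24, and in TRA2B from −0.08 to 0.19 and from −0.06 to 0.21. Over these 8 genes and both shRNAs, no interval ran beyond −0.31 or 0.27 on the log2 scale.

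**Figure D3:**
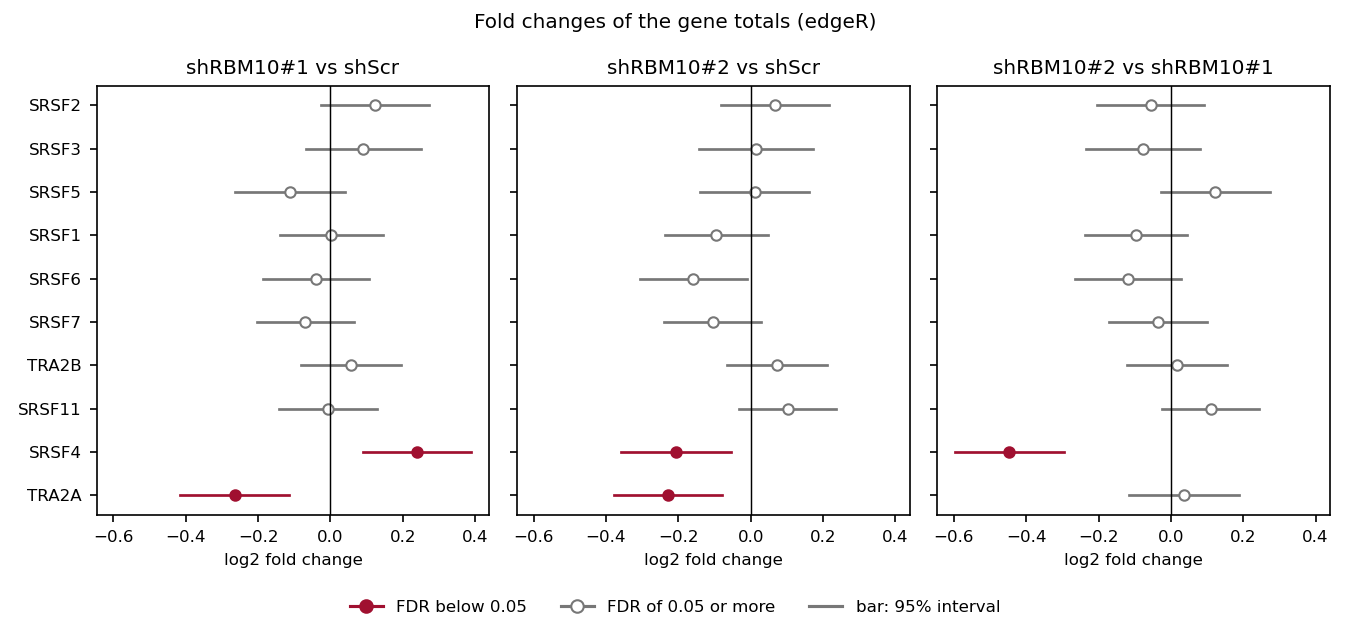
Log2 FC of the gene totals (x axis) with 95% intervals (bars), for shRBM10#1 and shRBM10#2 relative to shScr and for shRBM10#2 relative to shRBM10#1. Filled points have an FDR below 0.05 (edgeR). SRSF4 is at 0.24, −0.21 and −0.45 and TRA2A at −0.26, −0.23 and 0.04, and the intervals of the other 8 genes lie near 0.

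Genes that act with the SR proteins were read from lists. Their counts stand beside the calls over all genes, which were 14.0% (7.13% higher and 6.91% lower) with shRBM10#1, 25.9% (12.0% and 13.9%) with shRBM10#2 and 25.5% (11.0% and 14.5%) between the shRNAs. Of 27 other SR and SR-related genes tested, 1 (3.7%) was called with shRBM10#1 and 9 (33.3%) with shRBM10#2, all of them lower. Between the shRNAs 11 (40.7%) were called, 1 higher and 10 lower with shRBM10#2. RNPS1, an SR-related protein of the exon junction complex, was the gene lower with shRBM10#1 (log2 FC −0.58, FDR = 2.66e-04, edgeR). With shRBM10#2 the smallest FDR among the 9 belonged to U2AF2 (−0.52), which recognizes the polypyrimidine tract, SCAF1 (−0.47), SAFB (−0.37) and PPIG (−0.38), with an FDR of 0.00311 or less (edgeR). The median log2 FC of this list was −0.0004 with shRBM10#1 and −0.14 with shRBM10#2. In the pooled comparison, in which RBM10 was not called either, 0 of the 27 were called, beside 1.62% of all genes (edgeR).

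SR proteins are phosphorylated by CLK and SRPK kinases and carried into the nucleus by TNPO3. Of 13 genes tested of the kinases, the importers and the PP1 phosphatases, 1 (7.69%) was called with shRBM10#1, which was higher, and 5 (38.5%) with shRBM10#2, 4 higher and 1 lower. Between the shRNAs 4 (30.8%) were called, 3 higher and 1 lower with shRBM10#2. CLK2, which releases SR proteins from nuclear speckles, was higher with shRBM10#1 (log2 FC 0.39, FDR = 0.00946, edgeR) and with shRBM10#2 (log2 FC 0.48, FDR = 0.00197, edgeR). With shRBM10#2, PPP1CC (0.29) and CLK1 (0.34) were higher and PPP1CA (−0.22) was lower, with an FDR of 0.0213 or less (edgeR). The median log2 FC of this list was 0.03 with shRBM10#1 and 0.12 with shRBM10#2. In the pooled comparison 0 of the 13 were called, so CLK2 was not called there (edgeR).

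Of 15 NMD factors, all tested, 1 (6.67%) was called with shRBM10#1, 5 (33.3%) with shRBM10#2 and 4 (26.7%) between the shRNAs, each of them lower. UPF3B, which links the exon junction complex to UPF1 and UPF2, had a log2 FC of −0.34 with shRBM10#1 (FDR = 0.0114, edgeR) and of −0.31 with shRBM10#2 (FDR = 0.0122, edgeR). The endonuclease SMG6 (−0.42), SMG5 (−0.30) and the helicase UPF1 (−0.31) were lower with shRBM10#2, with an FDR of 0.00945 or less (edgeR). The median log2 FC of the list was −0.05 and −0.15. In the pooled comparison 0 of the 15 were called, so UPF3B was not called there (edgeR).

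The share of noncoding isoforms in the gene's TPM was small in all 4 genes. Its mean with shScr was 5.90% ± 0.565 (SD, n = 2) in SRSF1, 2.74% ± 1.19 in SRSF2, 5.48% ± 1.24 in SRSF3 and 7.81% ± 0.577 in SRSF6. Over the 1059 genes with both kinds of isoform past the filter the median share was 6.79% (quartiles 2.14% and 19.3%), so these 4 genes lay at percentiles 29.8 to 53.3. Steady-state RNA was measured, and how much of the noncoding isoforms had been degraded cannot be read from it.

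In SRSF1 the noncoding share was 6.30% and 5.50% with shScr, 6.03% and 6.49% with shRBM10#1, and 4.09% and 5.06% with shRBM10#2. The shRBM10#2 libraries lay below all the others, but the nearest shScr library was closer to the higher of them than they were to each other. Relative to the rest of the gene the noncoding isoform had a log2 FC of 0.08 with shRBM10#1 (FDR = 1.0) and −0.37 with shRBM10#2 (unadjusted p = 0.0357, FDR = 0.392, edgeR diffSpliceDGE). In expected counts the share ran from 3.53% (95% Wilson interval 3.21% to 3.90%) in shRBM10#2 replicate 1 to 5.64% (5.22% to 6.08%) in shRBM10#1 replicate 2.

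In SRSF6 the share was 7.40% and 8.21% with shScr, 6.75% and 6.42% with shRBM10#1, and 8.35% and 7.99% with shRBM10#2. The shRBM10#1 libraries were the lowest, and those of shRBM10#2 overlapped shScr. The log2 FC relative to the gene was −0.25 with shRBM10#1 (unadjusted p = 0.183, FDR = 0.954) and 0.06 with shRBM10#2 (FDR = 1.0, edgeR diffSpliceDGE). Counts gave 6.88% (6.33% to 7.49%) in shRBM10#1 replicate 2 and 8.94% (8.29% to 9.62%) in shRBM10#2 replicate 1 as the ends of the range.

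In SRSF3 the share was 6.36% and 4.61% with shScr, 4.64% and 4.14% with shRBM10#1, and 5.41% and 5.30% with shRBM10#2. The shScr libraries spanned all but 1 of the knockdown libraries. The log2 FC relative to the gene was −0.33 with shRBM10#1 (unadjusted p = 0.195, FDR = 0.969) and −0.05 with shRBM10#2 (FDR = 1.0, edgeR diffSpliceDGE). Counts gave 4.77% (4.43% to 5.13%) in shRBM10#1 replicate 2 and 7.30% (6.85% to 7.76%) in shScr replicate 1.

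In SRSF2 the share was 3.58% and 1.91% with shScr, 2.47% and 3.07% with shRBM10#1, and 3.50% and 3.34% with shRBM10#2. The shScr libraries were the highest and the lowest of the 6, so every knockdown library lay between them. In counts they gave 3.67% (3.28% to 4.1%) and 1.95% (1.66% to 2.29%), a gap wider than counting error. The log2 FC relative to the gene was −0.01 with shRBM10#1 (FDR = 1.0) and 0.29 with shRBM10#2 (unadjusted p = 0.634, FDR = 1.0, edgeR diffSpliceDGE). Wilson intervals cover counting error only.

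In all, 0 of the 4 genes were called in the test of the noncoding share with either shRNA, with both together or between the shRNAs, beside 0.0%, 0.189%, 0.472% and 0.0% of the 1059 genes. A Simes p below 0.05 was seen in 0, 1, 0 and 1 of the 4 (edgeR, SRSF1 in both cases), beside 7.84%, 11.0%, 7.08% and 10.6% of the 1059 genes. In limma's diffSplice 0 of the 4 were called as well, beside 64, 151 and 12 of all genes tested with shRBM10#1, with shRBM10#2 and with both. There 0, 1 and 0 of the 4 had a Simes p below 0.05, and the share of all genes below it was not counted. An exact two-sided permutation test on the shares of the 4 knockdown libraries against shScr gave p = 0.667, 0.667, 0.533 and 0.667 for SRSF1, SRSF2, SRSF3 and SRSF6, where 0.133 is the smallest p the design allows. For 2 libraries against 2 the smallest is 0.333. The absolute level of each noncoding isoform was also compared. The 95% intervals of the log2 FC with shRBM10#1 ran from −0.24 to 0.41 for NR_034041 of SRSF1, from −0.77 to 0.99 for NR_036608 of SRSF2, from −0.82 to 0.33 for NR_036610 of SRSF3 and from −0.62 to 0.05 for NR_034009 of SRSF6. With shRBM10#2 they ran from −0.79 to −0.13, from −0.52 to 1.23, from −0.60 to 0.54 and from −0.43 to 0.24 (edgeR). For NR_034041 with shRBM10#2 the log2 FC was −0.46 (SE 0.130, unadjusted p = 0.0147, FDR = 0.126, edgeR). The noncoding isoforms of these 4 genes were also summed against the TPM of all 10. They gave 3.28% and 2.66% with shScr, 2.69% and 2.71% with shRBM10#1, and 2.98% and 2.94% with shRBM10#2. The knockdown libraries thus lay within the range of shScr.

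**Figure D4:**
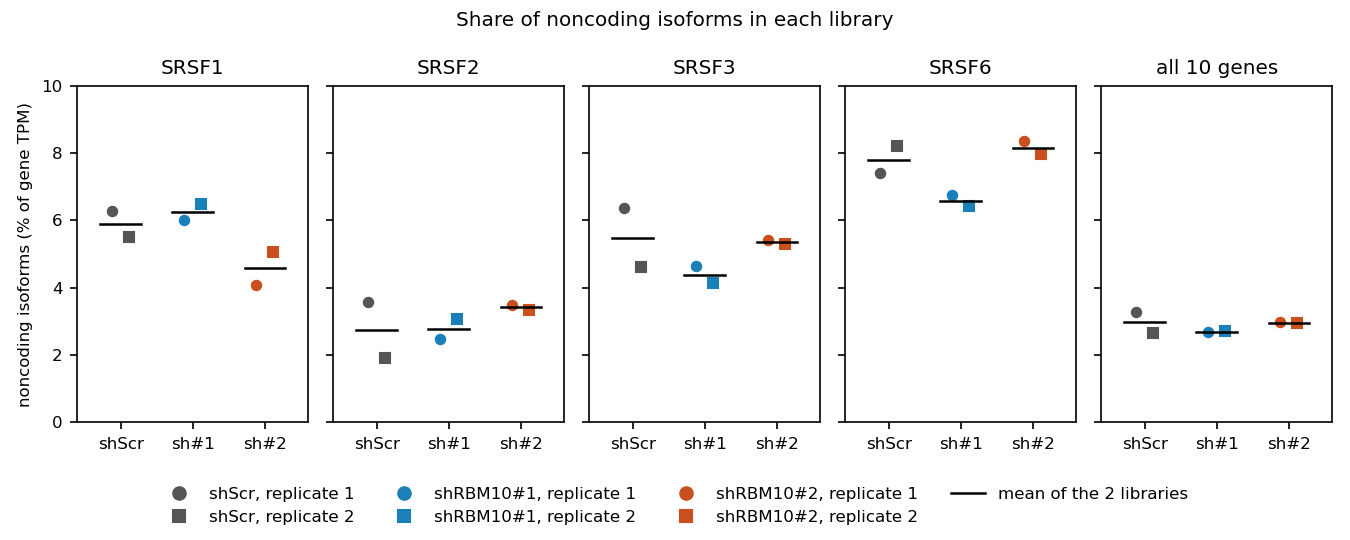
Noncoding isoforms as a percent of the gene's TPM (y axis, from 0) in SRSF1, SRSF2, SRSF3, SRSF6 and all 10 genes together, by library. Circles and squares are replicates 1 and 2, and lines are condition means. Every share lay between 1.91% and 8.35%, and for all 10 genes together the knockdown libraries, at 2.69% to 2.98%, lay within the shScr range of 2.66% to 3.28%.

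SRSF1, SRSF2, SRSF5, SRSF7, SRSF11, TRA2A and TRA2B have more than 1 coding isoform, and all of these isoforms are given here, although the rule for named isoforms did not include them. In SRSF7, NM_001195446 skips an exon of 36 nt (chr2:38746144-38746179, minus strand), which leaves 226 codons of a frame of 238. In TRA2B, NM_001243879 skips an exon of 134 nt (chr3:185926601-185926734, minus strand), and its annotated frame has 188 codons instead of 288. In TRA2A, NM_001282757 and NM_001282759 hold a segment of 301 nt (chr7:23522132-23522432, minus strand) and NM_001282758 and NM_001282759 a segment of 90 nt (chr7:23531181-23531270, minus strand), and their frames have 180 or 181 codons instead of 282. Without the 36 nt and 134 nt exons the mRNAs read as follows, with capitals for what follows the shared upstream exon.

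SRSF7 NM_001031684: acgaccaagaagcagCCGATCAAAGTCCAG
SRSF7 NM_001195446: acgaccaagaagcagTCGTTCCCCATCAGG
TRA2B NM_004593: aactacggcgagcggGAATCCCGTTCTGCT
TRA2B NM_001243879: aactacggcgagcggGTCTAGATCCAGAAG

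In each pair the upper line is the main isoform, which holds the exon, and the lower line the isoform that skips it. The SRSF5 isoforms share a frame of 272 codons and differ by 125 nt in the 5′ UTR. NM_001078166 of SRSF1 retains the same 200 nt intron as NR_034041 and has its frame of 201 codons, but no junction behind the stop codon. NM_004768 of SRSF11 was not matched to GENCODE.

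The main isoform held 86.5% to 97.4% of the TPM in SRSF1, SRSF2, SRSF3, SRSF6, SRSF7, TRA2A and TRA2B, 77.9% to 85.5% in SRSF5 and 55.9% to 63.2% in SRSF11. The share of the shorter TRA2B isoform was 2.64% and 2.95% with shScr, 3.13% and 4.22% with shRBM10#1, and 4.04% and 3.70% with shRBM10#2. All knockdown libraries lay above both shScr libraries for TRA2B. For TRA2A, NM_001282757 was at 2.68% and 4.71% with shScr, 4.94% and 3.26% with shRBM10#1, and 6.89% and 9.05% with shRBM10#2, with the shRBM10#2 libraries above all the others. The other minor isoforms of TRA2A overlapped between conditions, with NM_001282758 at 1.72% to 3.99% and NM_001282759 at 1.39% to 2.95%. In SRSF7 the isoform without the 36 nt exon was at 8.79% and 9.10% with shScr, 6.31% and 6.98% with shRBM10#1, and 8.78% and 7.11% with shRBM10#2. All knockdown libraries of SRSF7 lay below the shScr libraries, the nearest at 8.78% against 8.79%. NM_003016 of SRSF2 was at 5.85% and 5.68% with shScr, 5.79% and 5.49% with shRBM10#1, and 7.87% and 7.27% with shRBM10#2. NM_001078166 of SRSF1 was at 0.911% and 2.21% with shScr, 2.04% and 0.331% with shRBM10#1, and 4.72% and 3.58% with shRBM10#2. For both of these, the shRBM10#2 libraries lay above the others. SRSF5 and SRSF11 showed no such separation, with NM_001039465 of SRSF5 at 14.5% to 22.1% and NM_001190987 of SRSF11 at 36.8% to 44.1%. How many of all isoforms separate in these ways was not counted, so the separations are a description.

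None of this passed a test across all genes. Isoform usage, which asks whether an isoform's share of its gene changed, was called in 0 of the 9 genes with at least 2 isoforms with shRBM10#1, with shRBM10#2 or with both together (edgeR diffSpliceDGE), beside 0.172%, 2.75% and 0.515% of 6405 genes. No gene of the 9 had an unadjusted p below 0.05 in edgeR, beside 6.17%, 10.4% and 5.43% of the 6405 genes. In limma's diffSplice 0 of the 9 were called, beside 42, 571 and 41 of all genes tested. There 1, 4 and 2 of the 9 had a Simes p below 0.05, and the share of all genes below it was not counted. Single isoforms at an FDR below 0.05 and an absolute log2 FC above 1 numbered 0 of 23 in each comparison (edgeR), beside 0.0227%, 0.491% and 0.0% of 26464 isoforms. With the FDR alone they also numbered 0, beside 0.0302%, 2.26% and 0.0%. An unadjusted p below 0.05 was seen in 3, 6 and 3 of the 23, beside 14.5%, 21.5% and 10.9% of all isoforms tested, so such values were about as frequent among the 23 as elsewhere. DESeq2 called 0 of the 23 as well by both criteria, beside 528, 810 and 270 of all isoforms. There 4, 8 and 2 of the 23 had an unadjusted p below 0.05, and the share of all isoforms below it was not counted. The smallest FDR belonged to NM_013293, the main isoform of TRA2A, with a log2 FC of −0.31 with shRBM10#2 (95% interval −0.48 to −0.14, FDR = 0.0794, edgeR). NM_003016 of SRSF2 had a log2 FC of 0.45 with shRBM10#2 (95% interval 0.16 to 0.75, unadjusted p = 0.0106, FDR = 0.108, edgeR). The shorter TRA2B isoform had a log2 FC of 0.45 with shRBM10#1 (95% interval −0.07 to 0.97, FDR = 0.407, edgeR) and 0.55 with shRBM10#2 (95% interval 0.03 to 1.1, FDR = 0.213, edgeR), and the interval for NM_001078166 of SRSF1 with shRBM10#2 ran from −0.93 to 3.57. Some of these intervals thus include a change of 2-fold. Their width did not follow the number of reads alone, since NM_001078166, with a mean of 256 reads per library, had an SE of 0.890 and the shorter TRA2B isoform, with 201 reads, an SE of 0.207. The 2 shRBM10#1 libraries held 217 and 38.5 reads of NM_001078166.

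**Figure D5:**
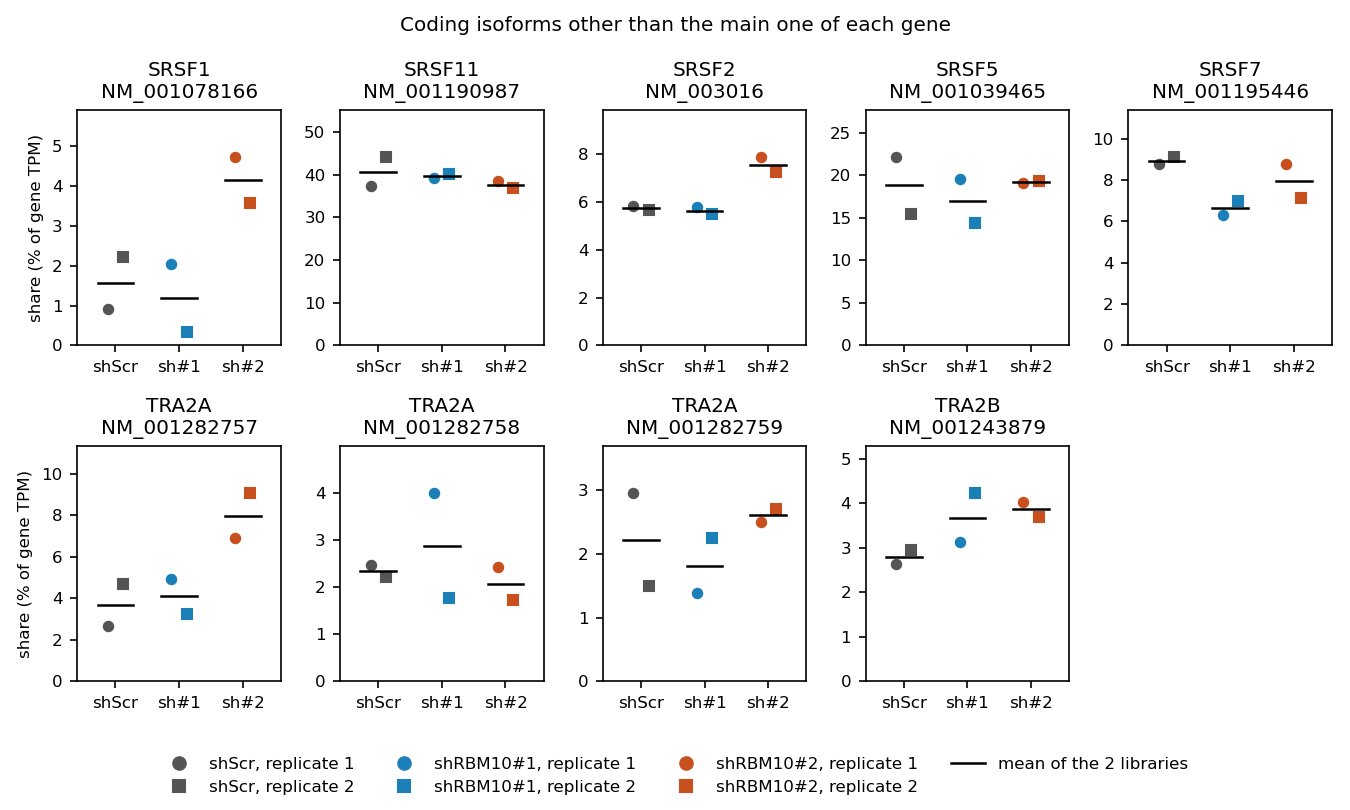
Coding isoforms other than the main isoform of each gene, as a percent of the gene's TPM (y axis, from 0, its own scale in each panel), by library. Circles and squares are replicates 1 and 2, and lines are condition means. The shRBM10#2 libraries lay highest for NM_001078166 (3.58% and 4.72%), NM_003016 (7.27% and 7.87%) and NM_001282757 (6.89% and 9.05%), and none of these was called (edgeR).

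The mean profile of the 10 genes, each as log2 CPM centered on its own mean, was nearly flat, between −0.048 in shRBM10#2 replicate 2 and 0.052 in shScr replicate 1. Of 14207 other genes, CDK20 (Pearson r = 0.986), LRRC47 (r = 0.984) and C19orf68 (r = 0.979) followed this profile most closely over the 6 libraries. The libraries share their scaling, and in 6 points with so small a range these values are a description.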

How the data were processed

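RNA-Seq of 6 PC-9 libraries was used, 2 per condition. The authors deposited, per RefSeq isoform and library, expected counts from RSEM, TPM (scaled by effective length and depth), FPKM and the percent of its gene given by each isoform; the deposited FPKM and percent values were not used. The submitters' processing notes name STAR 2.4, RSEM 1.2.29, edgeR and hg19. Strand is not given in the sources used here. RSEM divides reads shared by isoforms by likelihood, so minor isoforms can exchange reads.

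Expected counts were summed per gene or kept per isoform, rounded to whole numbers, scaled by TMM (factors 0.979 to 1.02), filtered with filterByExpr and tested with edgeR 4.0.16 (quasi-likelihood test) in R 4.3.3, with Benjamini-Hochberg adjustment over all features tested. Gene totals were called at an FDR below 0.05, and isoforms also needed an absolute log2 FC above 1, as in the methods. Isoform usage, and NM_ against NR_ counts within a gene, were tested with diffSpliceDGE. It gave a Simes p per gene from the p of its isoforms or kinds of isoform, adjusted over genes to the FDR. Limma's diffSplice was read in the same way. All fits held 6 libraries. Wilson intervals (95%) and exact two-sided permutation tests came from SciPy 1.17.1 in Python 3.11.15, and the figures from matplotlib 3.10.9. Scripts were tested on simulated data.

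Alternatives were DESeq2 1.42.0 (Wald test, and its size factors in edgeR), limma 3.58.1 (voom with diffSplice), no filter, at least 10 counts in every library, the fold criterion, expected counts in place of TPM, isoforms with a mean of at least 10 counts, one coefficient per condition, the replicate number as a block, and each library left out. Limma on log2(TPM + 0.1) was chosen after seeing the data.

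By rule, all 10 genes were named, with RBM10, noncoding isoforms with a mean of at least 10 counts, isoforms called in a fit, up to 4 genes per list and comparison with the smallest FDR, and the 3 genes most like the mean profile. The members and lists were chosen with earlier results of these data known.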

Additional observations from a re-analysis of the deposited data

Results flagged for a closer look

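The level of SRSF4 differed between the shRNAs by a test of the difference itself. The same test called 25.5% of all genes (FDR below 0.05, edgeR). The log2 FC of shRBM10#2 relative to shRBM10#1 was −0.45 (SE 0.0695, FDR = 0.000959, edgeR), with SRSF4 at 64.25 and 62.05 CPM in the shRBM10#2 libraries and at 86.7 and 85.4 CPM in those of shRBM10#1. RBM10 itself differed between the same libraries by −1.11 on the log2 scale (FDR = 3.65e-06, edgeR), and its part in the difference was not tested.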

How the results depend on the processing

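The number of the 10 genes called moved with the setting in the comparisons with each shRNA. With shRBM10#1 it was 2, and 0 with the fold criterion, 1 in limma on log2(TPM + 0.1) and 0 to 1 with a library left out. With shRBM10#2 it was 2, and 0 with the fold criterion, 1 with the replicate block (SRSF4 was lost, FDR = 0.0616, edgeR), 0 in limma on log2(TPM + 0.1) and 0 to 2 with a library left out. In the pooled comparison it was 0, and 1 (TRA2A, FDR = 0.013, edgeR) with one coefficient per condition. The libraries whose omission ended a call are named beside SRSF4 and TRA2A, and for the rest the cause was not tested. The other 150 values of counts and summed shares stayed within 1.5 times the count, or within the largest SD between replicates (0.441 percentage points) for the noncoding share of the 10 genes together. That margin is wider than the differences themselves, and with a library left out they ran from −0.585 to 0.039 points with shRBM10#1, −0.317 to 0.307 with shRBM10#2 and −0.451 to 0.173 pooled, so their sign was not stable. Every count of 0 for isoforms, usage and the noncoding share stayed 0.

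Some log2 FC of genes that were never called in that comparison changed sign. For SRSF1 with shRBM10#1 it was −0.0063 under the minimum of 10 counts per library, −0.0014 without a filter, −0.096 in limma on log2(TPM + 0.1) and −0.057 to 0.063 with a library left out. Limma on log2(TPM + 0.1) also gave −0.0027 for SRSF2, −0.041 for SRSF3 and −0.039 for SRSF5 with shRBM10#2, −0.040 for TRA2B with shRBM10#1 and −0.057 for SRSF4 in the pooled comparison. With a library left out the ranges that crossed 0 were −0.0068 to 0.20 for SRSF3, −0.11 to 0.039 for SRSF6 and −0.030 to 0.017 for SRSF11 with shRBM10#1, −0.085 to 0.12 for SRSF3 and −0.055 to 0.079 for SRSF5 with shRBM10#2, and −0.047 to 0.11 for SRSF4 pooled. For the noncoding isoform relative to its gene they were −0.011 to 0.19 (SRSF1) and −0.38 to 0.53 (SRSF2) with shRBM10#1, and −0.082 to 0.83 (SRSF2), −0.25 to 0.22 (SRSF3) and −0.0061 to 0.14 (SRSF6) with shRBM10#2. The value of SRSF2 with shRBM10#1 was also 0.039 with the replicate block and 0.084 in limma's diffSplice.

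Replicate numbers were not taken to pair libraries, since libraries of the same number showed no shared deviation: the correlation was −0.0038 between shScr and shRBM10#1, −0.019 between shScr and shRBM10#2 and −0.014 between the shRNAs. Beyond SRSF4 with shRBM10#2, the replicate block changed no call of the 10 genes. With 2 libraries per condition, a lone library left in a condition after an omission was assumed to vary like the others.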
